A study of Mus musculus with 6 samples.

Results

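The 31 genes described here encode the enzymes that bring pyruvate into the mitochondrion, turn the tricarboxylic acid cycle and carry carbon out of it again. They were taken by symbol from a list of cycle and pyruvate entry genes, and all 31 were found among the 35602 genes of the count table and among the 34714 genes of both single-library tables. Pyruvate made by glycolysis crosses the inner mitochondrial membrane through a carrier and is turned into acetyl-CoA by the pyruvate dehydrogenase complex, or into oxaloacetate by pyruvate carboxylase. Citrate synthase joins acetyl-CoA and oxaloacetate, and the following steps release carbon dioxide and pass electrons to the respiratory chain. Stimulated T cells take up more glucose and glutamine, and use cycle intermediates as building material as well as fuel, with cytosolic isozymes of several steps working beside the mitochondrial ones.

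The study asked how CD4+ T cells respond to MAPK13-IN-1, an inhibitor of the p38 family kinase Mapk13. Mouse splenic CD4+ T cells were stimulated through CD3 and CD28 and collected after 72 h, with 3 DMSO-treated and 3 MAPK13-inhibitors-treated libraries. Replicates 2 and 3 of both groups were of WT genotype, were grown in medium with fetal bovine serum, received 17.1 μM inhibitor or DMSO, and were deposited as 1 count table. Replicate 1 of both groups came from another library preparation, carries no genotype or dose in its labels, and was deposited as single tables read here as FPKM (fragments scaled by gene length and library size), so it stayed out of every test. Its titles carry no number, so that the number 1 and the setting of its libraries side by side as a pair were chosen here and stand for no shared origin. For replicates 2 and 3 the labels place the addition of inhibitor or DMSO once day 1 had passed, while the series text has the inhibitor present for 72 h, so the length of exposure is not certain. All 6 libraries shared the spleen as source. Nothing says that the replicates came from separate cultures or animals, so the p-values measure only the spread between these libraries, which may be technical. The count libraries held 26874805 and 28487403 counts in the DMSO-treated cells and 33854760 and 32617702 in the MAPK13-inhibitors-treated cells. Counts are given as CPM (counts scaled to equal library totals after TMM), on which 3 counts are worth 0.0845 to 0.116.

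The label of CD4+ T cells was checked against marker genes. Cd4 stood at 275 and 276 CPM in the DMSO-treated and at 267 and 283 CPM in the MAPK13-inhibitors-treated libraries. Of the 7 CD4 T cell markers found in the table, 6 fell and none rose, beside 32.3% and 31.5% of all genes. Their summed level was 1663 and 1694 CPM with DMSO and 902 and 1024 CPM with the inhibitor. Cd5 was the most abundant gene by mean, although Cd4 and Cd28 were above it in both libraries with the inhibitor. B cell genes were also present in every count library. Their 10 markers summed to 1141 and 1119 CPM with DMSO and to 1310 and 1333 CPM with the inhibitor. Of these markers 7 rose and 2 fell, beside 31.5% and 32.3% of all genes. Their most abundant gene by mean, Pax5, rose from 178 and 168 CPM to 263 and 271 CPM. In replicate 1 the B cell markers went from 52.3 to 36.5 FPKM in sum, beside 1024 to 934 FPKM for the CD4 T cell markers. Genes that define B cells were thus not near 0 in any library of the count table.

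Markers of other cells were low, and their calls stand beside 32.3% of all genes called lower and 31.5% called higher. The 2 CD8 T cell markers, led by Cd8b1, both fell and summed to 11.7 and 10.9 CPM with DMSO and to 5.49 and 7.84 CPM with the inhibitor, but went from 3.49 to 8.39 FPKM in sum in replicate 1, and with DESeq2 1 of them passed. The 6 NK cell markers, led by Eomes, summed to at most 2.35 CPM in any count library, with Klra8 at 0 in all 4 and no call for the 1 tested, and went from 0.645 to 4.40 FPKM in sum in replicate 1. The 9 erythroid markers, led by Epor with DMSO and by Hbb-bs with the inhibitor, summed to 10.5 and 10.3 CPM with DMSO and 91.3 and 66.6 CPM with the inhibitor, and of 8 tested 6 rose and 1, Epor, fell, but none was called lower with DESeq2, library totals alone or upper quartile factors, nor with DMSO replicate 2, DMSO replicate 3 or MAPK13-IN-1 replicate 2 left out. The 10 macrophage and monocyte markers, led by Cd68, summed to 13.7 and 11.9 CPM with DMSO and 43.1 and 35.7 CPM with the inhibitor, 6 of 7 tested rose, and in the DMSO-treated libraries Mrc1, C1qa and C1qc were at 0. The 6 dendritic cell markers, led by Zbtb46, summed to 19.2 and 19.4 CPM with DMSO and 58.95 and 49.2 CPM with the inhibitor, all 4 tested rose, with Clec9a and Siglech at 0 with DMSO. The 9 neutrophil markers, led by Mpo with the inhibitor, summed to 0.233 and 0.294 CPM with DMSO and 0.845 and 0.973 CPM with the inhibitor, with S100a9 at 0 in the counts. The 1 tested, Mpo, rose, a call that was lost with DESeq2 and with at least 10 counts in every library. In the counts the 5 platelet markers, led by Itga2b, stood at 19.7 and 17.7 CPM with DMSO and at 25.4 and 22.6 CPM with the inhibitor, with Ppbp at 0 and 2 of 3 tested higher, or 1 with at least 10 counts in every library, while 1 was called lower without a filter on low counts, with the replicate block, and with either DMSO library or MAPK13-IN-1 replicate 2 left out. In replicate 1 the sums went from 1.005 to 2.04 FPKM for erythroid, 3.02 to 9.54 FPKM for macrophage and monocyte, 3.36 to 14.6 FPKM for dendritic cell, 0.742 to 0.455 FPKM for neutrophil and 2.38 to 3.39 FPKM for platelet markers. The part of these shifts in the results on cycle genes was not tested. In bulk RNA, fewer cells of a type and less RNA per cell cannot be told apart.

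Of the 31 cycle genes 19 fell with the inhibitor, beside 32.3% of all genes. With library totals alone 15 were called lower, beside 4302 of all genes, which numbered 5252 in the main fit. Pcx, Pck2 and Me1, the genes of pyruvate carboxylation and of 2 exits from the cycle, fell most in the counts, while in the replicate 1 pair, which had no test, Pck2 had the lowest ratio but Pcx was at -0.080 and Me1 at 0.18. The mitochondrial Idh2 and Mdh2 fell while their cytosolic counterparts Idh1 and Mdh1 rose, and so did Acly, which splits citrate in the cytosol. Me1, which fell, is cytosolic too. The mitochondrial Sdhd, Idh3b and Suclg2 rose in the counts, by 0.63, 0.35 and 0.27 log2 units, but had lower values in the replicate 1 pair. The direction in the counts thus did not follow the compartment throughout. All 31 members passed the filter on low counts. At an adjusted p under 0.05 (edgeR quasi-likelihood test, Benjamini-Hochberg over 16269 genes), 19 of the 31 were lower, or 61.3%, beside 32.3% of all genes tested, and 6 were higher, or 19.4%, beside 31.5%. The median log2 fold change of the members was -0.27, and that of all genes was 0.01. Changes over 0.5 log2 units were found for 7 lower and 2 higher members, beside 22.2% and 22.4% of all genes, so at that size the lower members were near the share of all genes. Changes over 1 log2 unit were found for 3 members, all lower, beside 10.4% of all genes that were that much lower and 13.0% that were that much higher. Scaling by library totals alone raised the median of all genes by 0.13 log2 units and brought the median of the members to -0.15, a shift that such a scaling gives to all genes nearly alike. Without DMSO replicate 3, the number of members called higher went from 6 to 3, with Acly, Suclg2 and Mdh1 no longer past the threshold.

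The summed level of the 31 members was 3199 and 3213 CPM in the DMSO-treated libraries and 2706 and 2815 CPM in the MAPK13-inhibitors-treated libraries, and the groups did not overlap. The sum went from 1308 to 1174 FPKM in the replicate 1 pair. Of the 30 members at 1 FPKM or more in both of these libraries, 22 had a lower value with the inhibitor and 8 a higher one. Of all 10378 genes at that level, 4735 had a lower value and 5643 a higher one. The median log2 ratio of FPKM + 1 was -0.13 for the members, beside 0.05 for all of these genes. There, 17 of the 30 were both called lower in the counts and lower in the replicate 1 pair, beside 24.8% of genes, and 3 were called higher and higher in the pair, beside 20.1%. These 3 were Idh1, Mdh1 and Acly.

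**Figure D1:**
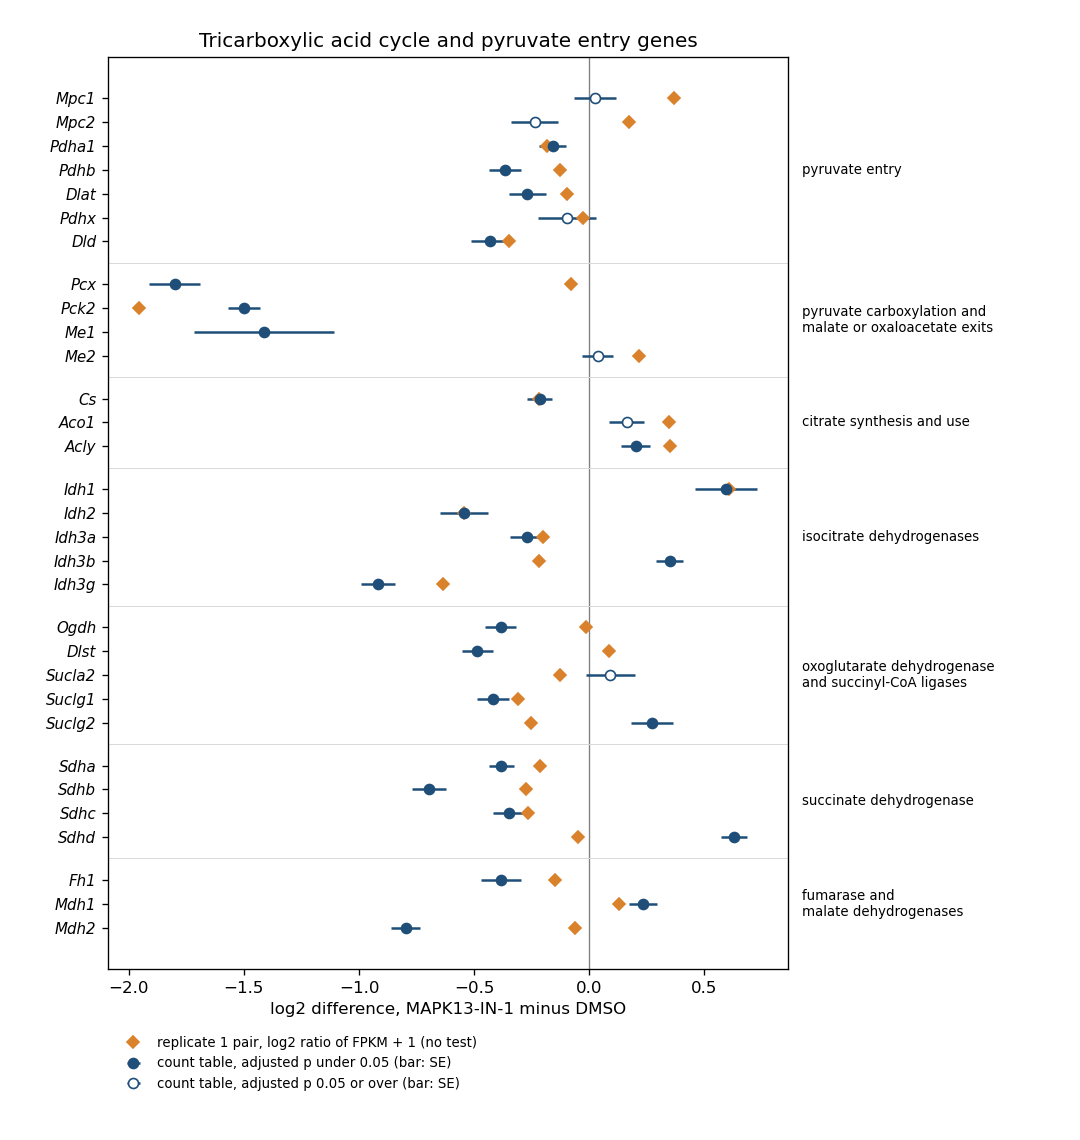
Log2 difference of MAPK13-IN-1 minus DMSO (x axis) for the 31 members (y axis, grouped by role). Circles are fitted log2 fold changes from the 2 DMSO-treated and 2 MAPK13-inhibitors-treated count libraries with bars of 1 SE, filled where the adjusted p was under 0.05, and diamonds are log2 ratios of FPKM + 1 in the replicate 1 pair, drawn for the 30 members at 1 FPKM or more in both libraries. Among the circles, Pcx at -1.80 and Pck2 at -1.50 lie farthest to the left, and Sdhd at 0.63 and Idh1 at 0.60 farthest to the right, while the diamond of Pck2 lies at -1.96.

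Per length, in the DMSO-treated replicate 1 library, Mdh2 was the highest member at 164 FPKM, followed by Cs at 87.8, Sdha at 85.9 and Idh3g at 76.6 FPKM. The lowest were Pcx at 4.10, Idh1 at 2.09 and Me1 at 0.244 FPKM. With the inhibitor, Mdh2, Cs and Sdha kept places 1 to 3, at 157, 75.4 and 73.9 FPKM. Acly moved from place 11 to place 4 (55.4 to 70.9 FPKM), Idh3g from place 4 to place 11 (76.6 to 48.9 FPKM) and Pck2 from place 16 to place 26 (36.1 to 8.58 FPKM). With 1 library a group, these orders have no spread beside them.

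Of the 7 pyruvate entry genes 4 fell, beside 32.3% of all genes, all of them subunits of the pyruvate dehydrogenase complex, and 2 were called lower with library totals alone, with upper quartile factors or without DMSO replicate 3. Mpc1 and Mpc2 form the mitochondrial pyruvate carrier. Mpc1 was measured at 49.4 and 41.9 CPM with DMSO and at 47.4 and 45.4 CPM with the inhibitor, so that the groups overlapped. Mpc2 stood at 19.4 and 17.9 CPM with DMSO and at 15.6 and 16.0 CPM with the inhibitor, which did not overlap but did not pass the test (edgeR adjusted p = 0.066), except without MAPK13-IN-1 replicate 3 (adjusted p = 0.037, and up to 0.36 under the other alternatives). Both carrier genes had higher values with the inhibitor in the replicate 1 pair, 24.5 against 31.97 FPKM for Mpc1 and 26.6 against 30.1 FPKM for Mpc2. The 23.1% of Mpc1 exon bases that overlap a gene on the opposite strand make its count less certain, since strand use in the counting is not stated.

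Dld, the dihydrolipoamide dehydrogenase shared with the oxoglutarate complex, had the largest log2 fold change at -0.43, followed by Pdhb, the beta subunit of the first enzyme, at -0.36, and Dlat, the acetyltransferase core, at -0.27. The alpha subunit gene Pdha1 changed by -0.16 on the same scale. Pdhx, which anchors Dld to the core, stood at 10.6 and 12.1 CPM with DMSO and at 10.9 and 10.3 CPM with the inhibitor, with overlapping groups. All 5 had lower values with the inhibitor in the replicate 1 pair, with log2 ratios from -0.35 for Dld to -0.026 for Pdhx. The call of Pdha1 was lost with library totals alone, with upper quartile factors, with DESeq2, with at least 10 counts in every library, and with either DMSO library left out (log2 fold change from -0.19 to -0.03 over all alternatives, adjusted p up to 0.63), and that of Dlat with library totals alone, upper quartile factors and without DMSO replicate 3 (adjusted p up to 0.13). Pdhx turned to 0.029 with library totals alone. Of the Pdha1 exon bases, 16.1% overlap Map3k15 on the opposite strand.

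Pcx fell most of all 31 members in the counts. It encodes pyruvate carboxylase, which refills the cycle with oxaloacetate. Its level was 29.9 and 27.5 CPM with DMSO and 7.74 and 8.73 CPM with the inhibitor, a log2 fold change of -1.80 ± 0.11 (SE; edgeR adjusted p = 4.64e-07), or 3.48-fold lower. The groups did not overlap, and each inhibitor library lay far under both DMSO libraries. Its replicate 1 values lay close together, at 4.10 and 3.83 FPKM, a log2 ratio of -0.080.

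Pck2 encodes the mitochondrial phosphoenolpyruvate carboxykinase, which takes oxaloacetate out of the cycle. It was measured at 177 and 178 CPM with DMSO and at 58.8 and 66.8 CPM with the inhibitor (log2 fold change -1.50 ± 0.07, SE; edgeR adjusted p = 1.04e-07). The groups were apart by 2.83-fold, and the replicate 1 pair went the same way, with a log2 ratio of -1.96. Me1 and Me2 are malic enzymes of the cytosol and the mitochondrion, which turn malate into pyruvate. Me1 was scarce, at 2.13 and 2.65 CPM with DMSO and at 0.704 and 1.09 CPM with the inhibitor, which did not overlap (log2 fold change -1.41 ± 0.30, SE; edgeR adjusted p = 0.00215). It rested on 25 to 72 counts a library, 2 near-identical copies (Gm7049 and Gm48795, over 98% identical) could share its reads, and its replicate 1 values of 0.244 and 0.405 FPKM went the other way. Me2 stood at 144 and 133 CPM with DMSO and at 136 and 148 CPM with the inhibitor, with overlapping groups.

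**Figure D2:**
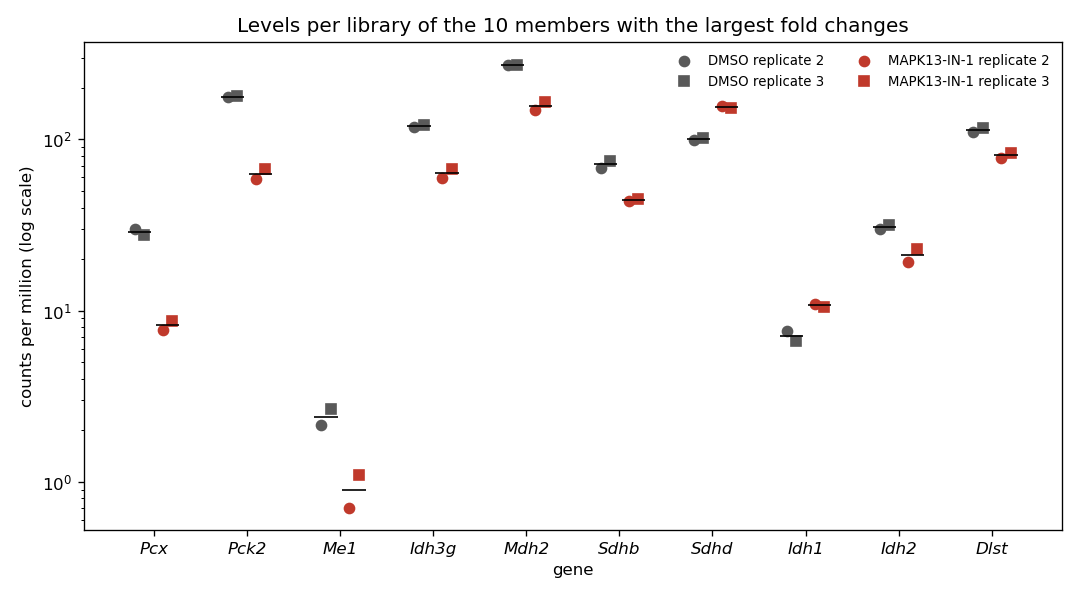
Level in CPM (y axis, log scale) of the 10 members with the largest fold changes past the threshold (x axis), in DMSO-treated (grey) and MAPK13-inhibitors-treated (red) libraries, with circles for replicate 2, squares for replicate 3 and lines at the group means. Of the 10 genes, Sdhd and Idh1 are higher with the inhibitor and the others lower.

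Citrate synthesis and use went in different directions. Cs, the citrate synthase, fell by 0.22 on the log2 scale, and Acly, the ATP citrate lyase that supplies acetyl-CoA to the cytosol, rose by 0.20. Aco1, the cytosolic aconitase that is also an iron regulatory protein, stood at 43.1 and 41.7 CPM with DMSO and at 49.1 and 45.7 CPM with the inhibitor, without overlap but not past the threshold (edgeR adjusted p = 0.089). Values in the replicate 1 pair went for Cs from 87.8 to 75.4 FPKM, for Acly from 55.4 to 70.9 FPKM and for Aco1 from 9.25 to 12.0 FPKM. The call of Cs was lost with library totals alone and without DMSO replicate 3 (adjusted p up to 0.15), and that of Acly with either DMSO library left out (adjusted p up to 0.11). Without MAPK13-IN-1 replicate 3 the log2 fold change of Acly was 0.11. Aco1 passed with library totals alone, with upper quartile factors, with at least 10 counts in every library and without MAPK13-IN-1 replicate 3 (log2 fold change from 0.11 to 0.29 over all alternatives).

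The NADP-dependent isocitrate dehydrogenases moved in opposite directions. Idh1 encodes the NADP-dependent enzyme of the cytosol and peroxisomes, and Idh2 that of the mitochondrion. Idh1 rose from 7.60 and 6.62 CPM to 11.0 and 10.5 CPM (log2 fold change 0.60 ± 0.14, SE; edgeR adjusted p = 0.0030). Idh2 fell from 29.8 and 31.6 CPM to 19.3 and 22.8 CPM (log2 fold change -0.54 ± 0.10, SE; edgeR adjusted p = 0.00102). The groups did not overlap for either gene. Idh1 thus made up 20.3% (95% Wilson interval 17.9 to 22.99%) and 17.3% (15.1 to 19.7%) of the counts of the pair with DMSO and 36.2% (33.4 to 39.2%) and 31.5% (28.9 to 34.3%) with the inhibitor, where the intervals cover counting error only. Its share of the FPKM of both genes in the replicate 1 pair went from 10.3% to 23.4%.

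Idh3a, Idh3b and Idh3g encode the subunits of the NAD-dependent enzyme that works in the cycle. Idh3g fell from 118 and 121 CPM to 59.5 and 67.2 CPM (log2 fold change -0.92 ± 0.07, SE; edgeR adjusted p = 2.22e-06), again without overlap. The catalytic subunit gene Idh3a fell by 0.27, while Idh3b rose by 0.35 on the log2 scale. The share of Idh3g in the counts of the 3 genes went from 39.6% and 40.4% to 21.9% and 25.3%, and that of Idh3b from 43.03% and 41.9% to 61.6% and 58.7%. All 3 subunit genes had lower replicate 1 values with the inhibitor, Idh3b included at 72.8 against 62.4 FPKM, and the share of Idh3g went from 43.9% to 36.8%. The call of Idh3a was lost with library totals alone and without DMSO replicate 3 (adjusted p up to 0.11).

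Ogdh and Dlst encode the first enzyme and the succinyltransferase core of the oxoglutarate dehydrogenase complex. Dlst fell from 110 and 117 CPM to 78.2 and 83.5 CPM (log2 fold change -0.49 ± 0.07, SE; edgeR adjusted p = 0.000104), and the groups did not overlap. Its replicate 1 values went the other way, from 38.2 to 40.7 FPKM. Ogdh fell by 0.39 on the log2 scale and stood at 23.1 and 22.9 FPKM in the replicate 1 pair. Succinyl-CoA ligase joins the shared subunit Suclg1 to Sucla2 in the ADP-forming enzyme or to Suclg2 in the GDP-forming one. Suclg1 fell by 0.42 on the log2 scale and Suclg2 rose by 0.27. Sucla2 was measured at 30.4 and 28.3 CPM with DMSO and at 34.5 and 28.1 CPM with the inhibitor, with overlapping groups, and passed only without MAPK13-IN-1 replicate 3 (log2 fold change 0.23, adjusted p = 0.021, and up to 0.87 under the other alternatives). Suclg1, Sucla2 and Suclg2 all had lower replicate 1 values with the inhibitor. The share of Sucla2 in the counts of Sucla2 and Suclg2 was 52.9% and 51.9% with DMSO and 50.6% and 47.8% with the inhibitor, and the counting intervals overlapped for some libraries of both groups and not for others. The call of Suclg2 was lost with DESeq2 and with either DMSO library left out (adjusted p up to 0.16), and a pseudogene (Gm15163, 98.9% identical over 1302 bases) could share its reads.

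Succinate dehydrogenase has 4 subunits, of which 3 fell in the counts and Sdhd rose, beside 32.3% and 31.5% of all genes. Sdhb, the iron-sulfur subunit, went from 68.4 and 75.0 CPM to 43.4 and 45.0 CPM (log2 fold change -0.70 ± 0.07, SE; edgeR adjusted p = 1.84e-05). Sdhd, a membrane anchor, went from 99.0 and 101 CPM to 156 and 153 CPM (log2 fold change 0.63 ± 0.06, SE; edgeR adjusted p = 6.27e-06). Neither gene had overlapping groups. The flavoprotein gene Sdha fell by 0.38 and the other anchor, Sdhc, by 0.35 on the log2 scale. Sdhd took 20.02% and 20.1% of the counts of the 4 genes with DMSO and 34.8% and 33.9% with the inhibitor. Its share of the replicate 1 FPKM went from 22.01% to 24.5%, its own value from 61.3 to 59.3 FPKM, and the other 3 subunits also had lower values with the inhibitor.

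Malate dehydrogenases also moved in opposite directions. Fh1, the fumarase, fell by 0.38 on the log2 scale. Mdh2, the mitochondrial malate dehydrogenase, fell from 272 and 274 CPM to 148 and 166 CPM (log2 fold change -0.80 ± 0.06, SE; edgeR adjusted p = 2.38e-06). The groups did not overlap, but the replicate 1 values of 164 and 157 FPKM lay close together. Mdh1, the cytosolic enzyme of the malate-aspartate shuttle, rose by 0.23 on the log2 scale, from 128 and 122 CPM to 148 and 145 CPM. Its call was lost without DMSO replicate 3 (adjusted p = 0.14). Mdh1 made up 31.9% (95% Wilson interval 31.05 to 32.8%) and 30.8% (29.9 to 31.6%) of the counts of both genes with DMSO and 50% (49.05 to 50.96%) and 46.6% (45.6 to 47.5%) with the inhibitor, and in the replicate 1 pair 23.4% and 25.9% of the FPKM.

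**Figure D3:**
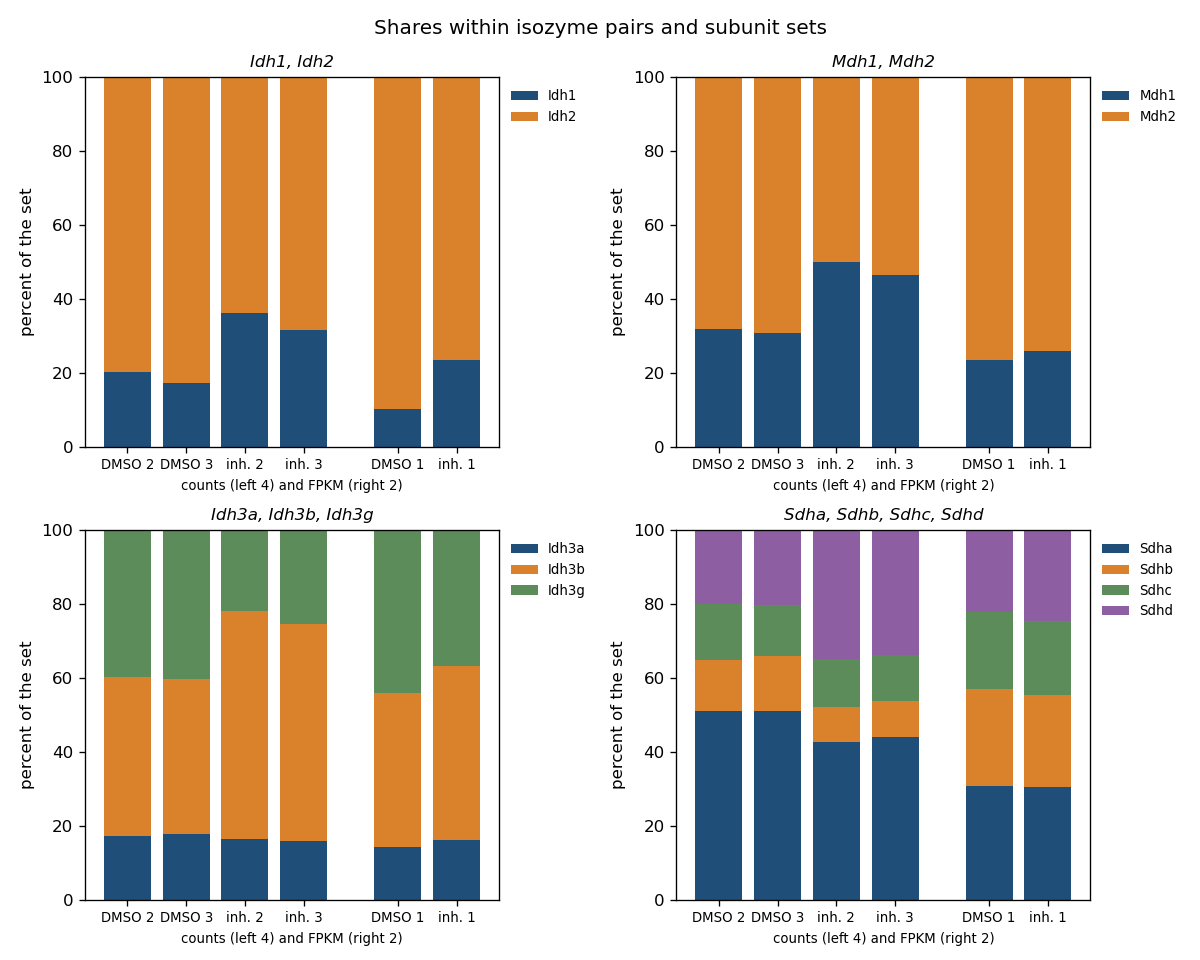
Share in percent (y axis) of each gene in 2 isozyme pairs and 2 subunit sets, per library (x axis), from counts in replicates 2 and 3 and from FPKM in replicate 1, where inh. stands for MAPK13-IN-1. Counts are not corrected for gene length, so bars from counts and from FPKM are compared only within each kind. The share of Idh1 is 20.3% and 17.3% with DMSO and 36.2% and 31.5% with the inhibitor.

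Shares in the other pairs and sets moved less or rested on few counts. Me1 made up 1.46% and 1.95% of the counts of the malic enzymes with DMSO and 0.515% and 0.733% with the inhibitor. In the replicate 1 pair the share of Me1 in the FPKM went the other way, from 2.15% to 3.01%. Mpc1 made up 71.8% and 70.1% of the carrier pair with DMSO and 75.3% and 73.9% with the inhibitor. Within the pyruvate dehydrogenase complex, Pdha1 took 42.97% and 42.5% of the counts with DMSO and 45.2% and 46.6% with the inhibitor. No share was tested, and an exact two-sided permutation test of 2 libraries against 2 cannot go below p = 0.333.

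Genes around the cycle were read from 7 lists of regulators, partners and carriers, and of the 56 tested 27 fell, or 48.2%, beside 32.3% of all genes, and 14 rose, or 25.0%, beside 31.5%. With either DMSO library left out, 8 of them were called higher. Of the 6 pyruvate dehydrogenase kinases and phosphatases tested, 4 fell and 2 rose. Pdk1, a kinase that switches the complex off, rose from 218 and 210 CPM to 413 and 375 CPM (log2 fold change 0.88), but went from 6.22 to 4.30 FPKM in replicate 1. The other kinase genes tested were called lower in the counts, so the kinases did not move one way. The phosphatase gene Pdp2 rose by 1.07 on the log2 scale, and Pdpr, a regulatory subunit of the phosphatase, fell by 0.48. Of 7 genes for the synthesis and transfer of lipoate, the cofactor that the members Dlat and Dlst carry, 4 fell and none rose, but 1 or 2 were called higher under 8 of the 11 alternative fits, all but DESeq2, RLE factors and the fit without DMSO replicate 2. The 3 with the smallest p were Mecr at -0.79, Lias at -0.59 and Mcat at -0.66 log2 units. Of the 4 assembly factors of succinate dehydrogenase, Sdhaf1 fell by 1.15 and Sdhaf2 rose by 0.20, while Sdhaf4, at 4.53 and 4.01 CPM with DMSO and 4.53 and 5.57 CPM with the inhibitor, did not pass. The call of Sdhaf2 was lost with DESeq2 and with either DMSO library left out (adjusted p up to 0.26). Of the Sdhaf1 exon bases, 69.6% overlap a gene on the opposite strand.

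Among 9 other cycle isozymes and partners tested, 1 fell and 4 rose. Those called higher numbered 1 without DMSO replicate 3 or with at least 10 counts in every library, and 2 without MAPK13-IN-1 replicate 2 or with DESeq2, and those called lower numbered 2 without MAPK13-IN-1 replicate 3, without a filter on low counts or with the replicate block. D2hgdh, which oxidises D-2-hydroxyglutarate, rose by 0.38, and Adhfe1 went from 0 and 8 counts to 34 and 29 counts. The call of D2hgdh was lost without DMSO replicate 3 (adjusted p = 0.059) and without MAPK13-IN-1 replicate 2 (log2 fold change 0.24, adjusted p = 0.055). Of 11 genes that feed or drain the cycle, 6 fell and 2 rose, or 1 with either DMSO library left out. The transaminase genes Gpt2 and Got1 had log2 fold changes of -1.79 and -1.42, and Pcca, a subunit of propionyl-CoA carboxylase, one of -1.23. Got1 and Gpt2 were also lower in replicate 1, from 94.97 to 53.8 FPKM and from 9.003 to 2.17 FPKM. Of 7 carriers of cycle intermediates, 6 fell (3 with library totals alone) and 1 rose (0 with DESeq2 or without DMSO replicate 2), with Slc25a11 (oxoglutarate) at -1.26, Slc25a1 (citrate) at -1.10 and Slc25a12 (aspartate and glutamate) at -0.78 log2 units. Slc25a1 went the other way in replicate 1, from 16.7 to 33.6 FPKM. Of 12 genes for mitochondrial mass and biogenesis, 5 fell and 4 rose, the latter 2 with either DMSO library left out, beside the 32.3% and 31.5% of all genes. The 3 with the smallest p were Polg at -0.63, Gabpa at -0.48 and Polrmt at -0.70 log2 units. All 3 fell, but the median log2 fold change of this list was 0.06, with a median log2 ratio of -0.36 in replicate 1. Of the 13 genes of the mitochondrial genome, 8 fell and none rose, but 3 were called higher with library totals alone or without MAPK13-IN-1 replicate 3, and their summed level was 9987 and 9842 CPM with DMSO and 10270 and 9154 CPM with the inhibitor, led by COX1.

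Promoter windows of 250 bases before to 50 after the start were found for 28 members, in 37 windows, in the RefSeq table of GRCm38.p6. Both strands were searched for 5 motifs, none of which contains another. The ATF4 composite core TGATGCAA was in no member window, beside 0.895% of all 32851 windows. The E-box CACGTG was in 4 windows, of Ogdh and Pcx, beside 7.15%. CTTTGA, a T cell factor core, was in 6 windows, 1 each of Cs, Idh2, Mdh1, Me1, Pck2 and Sucla2, beside 16.0%. GCGCATGC, part of the Nrf1 motif, was in 3 windows, of Ogdh and Sdhb, beside 2.71%, and CCAAT in 25 windows of 19 members, beside 37.4%. Some windows of Ogdh overlap each other and share their matches. A match is a description of the letters and no evidence of binding.

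The promoters of Pck2 and Pcx are shown as those of the members that fell most in the counts. Those of Idh2, which fell, and Mdh1, which rose, are shown because both hold CTTTGA. These genes belong to different isozyme pairs, and the windows of their counterparts Idh1 and Mdh2 do not hold CTTTGA. The windows are Pck2 at chr14:55540016-55540315 on the plus strand, Pcx at chr19:4510222-4510521 on the plus strand, Idh2 at chr7:80115301-80115600 on the minus strand and Mdh1 at chr11:21571885-21572184 on the minus strand. Each is written 5′ to 3′ along its gene, with capitals for the matches to these motifs on either strand other than CCAAT, which is left in lower case.
Pck2: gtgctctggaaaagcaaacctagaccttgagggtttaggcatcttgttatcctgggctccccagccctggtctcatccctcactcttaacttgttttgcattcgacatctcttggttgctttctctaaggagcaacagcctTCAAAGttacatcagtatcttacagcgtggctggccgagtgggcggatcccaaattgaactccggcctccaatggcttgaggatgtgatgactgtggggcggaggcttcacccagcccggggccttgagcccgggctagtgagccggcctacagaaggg
Pcx: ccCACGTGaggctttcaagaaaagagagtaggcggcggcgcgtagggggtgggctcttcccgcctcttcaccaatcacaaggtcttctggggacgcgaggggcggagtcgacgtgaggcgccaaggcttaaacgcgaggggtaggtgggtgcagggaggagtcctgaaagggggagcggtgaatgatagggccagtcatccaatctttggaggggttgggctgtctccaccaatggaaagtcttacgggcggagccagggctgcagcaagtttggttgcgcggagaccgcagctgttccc
Idh2: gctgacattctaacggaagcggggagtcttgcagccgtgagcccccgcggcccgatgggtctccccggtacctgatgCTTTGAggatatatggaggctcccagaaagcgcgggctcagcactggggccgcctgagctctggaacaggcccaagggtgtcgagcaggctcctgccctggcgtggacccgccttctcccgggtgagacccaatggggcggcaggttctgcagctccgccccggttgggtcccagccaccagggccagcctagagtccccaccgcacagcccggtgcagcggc
Mdh1: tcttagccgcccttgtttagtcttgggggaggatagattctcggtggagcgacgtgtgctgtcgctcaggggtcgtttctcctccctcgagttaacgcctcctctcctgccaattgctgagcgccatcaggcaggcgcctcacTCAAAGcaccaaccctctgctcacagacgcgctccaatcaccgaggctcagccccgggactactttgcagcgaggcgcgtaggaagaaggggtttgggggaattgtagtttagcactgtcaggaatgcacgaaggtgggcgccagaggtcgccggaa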

How the data were processed

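RNA-seq was made from 6 libraries of splenic CD4+ T cells. The authors deposited raw counts per gene for replicates 2 and 3, and their processing notes name fastp 0.21.0, HISAT2 2.1.0, StringTie 2.1.5, DESeq2 1.30.1 and mm10, without roles. For replicate 1 the authors deposited values read here as FPKM, whose unit the tables do not name, since they sum to 405150 and 390729 and since, over 9790 genes, the ratio of count to value rose with exon length (r = 0.59 across genes, which are not independent). Counts were filtered (filterByExpr), TMM-scaled and tested with edgeR 4.0.16 (glmQLFTest) in R 4.3.3. The fit was also run on simulated counts with few changed genes, balanced in direction. That run does not show how the scaling holds where as many genes change as here. DESeq2 1.42.0, other scalings and filters, a replicate term and leaving out each library were alternatives. Replicate 1 ratios used a pseudocount of 1 and had no test. Overlaps and copies (at least 95% identity over 300 bases) came from GENCODE M21. Values with tests were given for the 10 called members with the largest fold changes, values for members not called, and the 3 smallest p of each list, of which 1 gene is not reported here. Library levels of Mdh1, the values of Cd4 and Pax5, the 5 motifs, the promoters shown and the counts of members that moved one way in both kinds of table were chosen after values were seen. So were the calls of the other pyruvate dehydrogenase kinase genes and the medians of the list of mitochondrial mass and biogenesis. Markers Trac, Trbc1, Trbc2, Ighm and Ighd did not match by symbol and were not used here. The members and lists were chosen with earlier results of these data known.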

Additional observations from a re-analysis of the deposited data

Results flagged for a closer look

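For 4 members and 6 of the genes around the cycle named above, all past the threshold and at 1 FPKM or more in both replicate 1 libraries, both numbered pairs of the count table moved one way and the replicate 1 pair the opposite way. The difference between the preparations was not tested. Among the members, the replicate 1 log2 ratio was -0.22 for Idh3b, -0.25 for Suclg2 and -0.049 for Sdhd, which rose in the counts, and 0.088 for Dlst, which fell. Among the other genes it was -0.45 for Pdk1, which rose in the counts, and 0.088 for Pdpr, 0.37 for Mcat, 0.12 for Sdhaf1, 0.15 for Slc25a11 and 0.97 for Slc25a1, which fell. The ratios of Sdhd, Dlst and Pdpr are small, and 1 library a group gives them no spread. At 1 FPKM or more, 4 of 24 called members (16.7%), 15 of 35 called genes of the lists around the cycle (42.9%) and 2568 of 7234 of all called genes (35.5%) went the opposite way in replicate 1. Me1, which fell in the counts and was under 1 FPKM, had a ratio of 0.18 there.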

How the results depend on the processing

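Of 341 values of single members under the alternatives, 310 kept their direction and their side of the threshold, 19 no longer passed, 6 newly passed and 6 changed sign, the last all for members not past the threshold. Pdhx was at 0.029 with library totals alone. Without 1 library, Mpc1 ranged from -0.097 to 0.13, Me2 from -0.031 to 0.096 and Sucla2 from -0.064 to 0.23. The median of the members was -0.23 with at least 10 counts in every library, -0.15 with library totals alone and -0.19 with upper quartile factors, and -0.32 to -0.28 without 1 library. The median of the members less that of all genes was -0.28 in the main fit, with library totals alone and with upper quartile factors. For the other settings the cause was not tested. Members called higher numbered 3 to 8 without 1 library, and genes of the context lists called higher 8 to 15, where fewer libraries entered the fit. With a fold change over 0.5 log2 units as well, 7 members were lower and 2 higher, beside 22.2% and 22.4% of all genes; over 1, 3 and 0, and of all genes 1686 and 2113. At an adjusted p under 0.01, 8 genes of the context lists were higher. Same-numbered libraries did not deviate together (correlation -0.0064), and with the replicate number as a block 19 members were lower and 6 higher, and of all genes 5384 and 5261. Counts of 25 to 72 limit Me1.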
